A study of Homo sapiens with 16 samples.

Results

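Read-through genes are annotated genes whose transcripts join 2 neighbouring genes of the same strand, and their symbol is the symbols of the 2 parents joined by a hyphen. Of 64252 genes in the deposited tables, 121 had such a symbol with both parents also annotated, and 59 of them, chosen by a mean level of at least 1 CPM (counts scaled to the size of the library) over the 16 libraries, are described here together with their 118 parent genes. Of these parents, 117 are not themselves among the 59, since SUGT1P4-STRA6LP is at once a read-through gene and a parent of SUGT1P4-STRA6LP-CCDC180. The lowest inside the limit were ABHD14A-ACY1 at 1.14 CPM and ANKRD62P1-PARP4P3 at 1.04 CPM, and the highest outside it were TIMM23B-AGAP6 at 0.955 CPM and MSANTD3-TMEFF1 at 0.919 CPM.

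RNA was sequenced from the human cell lines Jurkat and 6T-CEM, both derived from T-cell acute lymphoblastic leukaemia, which carried either an shRNA against SH2D1A (sh-SH2D1A) or a control shRNA (sh-NC). Jurkat was taken at days 8 and 10, 6T-CEM at days 5 and 10, and what the days are counted from is not given in the labels. Every line, day and shRNA had 2 libraries, so the 4 comparisons of sh-SH2D1A with sh-NC each rest on 2 libraries against 2, with sh-NC libraries of their own. The labels name 1 shRNA against SH2D1A, and nothing in them says that the libraries of a group came from separate cultures, so each p-value reflects no more than the spread between the sequenced libraries.

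When RNA polymerase II does not stop at the end of a gene, it can run on into the next one, and splicing can join exons of the 2 genes into a single mature RNA. Such read-through RNA is common in human cells at low levels. Cleavage and polyadenylation factors set where transcription ends, and nonsense-mediated decay removes RNAs in which a joined reading frame meets an early stop codon. Most bases of a read-through RNA are also bases of the parents' own RNAs, so that only a read across the bridging splice junction, or in an exon neither parent has, belongs to it alone.

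In GENCODE 29 on hg38, all 59 genes lay on the same strand as both parents. The gap between the parents had a median of 2513 bases and was under 10000 bases for 34 of them, and in 8 the parents overlapped each other. The read-through gene started within 100 bases of its upstream parent's start in 31 cases and ended within 1000 bases of its downstream parent's end in 46. A median of 94.0% of its exonic bases were also exonic in a parent, with a range from 28.0 to 100%, and a median of 228 bases were not. Of the 59, 51 were annotated as protein coding and 8 as processed transcripts, and 34 had at least 1 transcript annotated for nonsense-mediated decay. An annotated splice junction from an upstream parent's exon to a downstream parent's exon was found in 51 genes, within coding sequence in 34. Among the genes with called changes, none was found for SENP3-EIF4A1, BMS1P4-AGAP5 or PDXDC2P-NPIPB14P. These genes do have 1, 4 and 10 annotated introns that neither parent has.

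The 5 junctions below, 1 for each of 5 genes with called changes, are shown because a read across such a junction belongs to the read-through RNA and to neither parent. Each of these genes but RNASEK-C17orf49 has more than 1 annotated bridging junction. Lower case marks the last 30 bases of the upstream parent's exon and capitals the first 30 bases of the downstream parent's exon, 5′ to 3′ in the sense of the gene. All 5 lie within coding sequence, and the central 30 bases of each occur in GENCODE 29 transcripts of 1 gene only. Upstream exons end at base 102822159 of chromosome 13 for BIVM-ERCC5 (plus strand), 4355286 of chromosome 16 for CORO7-PAM16 (minus), 34418369 of chromosome 6 for RPS10-NUDT3 (minus), 10111084 of chromosome 19 for PPAN-P2RY11 (plus) and 7014277 of chromosome 17 for RNASEK-C17orf49 (plus). The downstream exons begin at 102849118, 4343291, 34341972, 10113633 and 7015062 in the same order.
BIVM-ERCC5: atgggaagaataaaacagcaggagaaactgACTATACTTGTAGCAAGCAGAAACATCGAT
CORO7-PAM16: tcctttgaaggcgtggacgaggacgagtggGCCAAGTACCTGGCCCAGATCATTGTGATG
RPS10-NUDT3: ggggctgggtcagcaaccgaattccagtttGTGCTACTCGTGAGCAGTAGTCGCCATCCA
PPAN-P2RY11: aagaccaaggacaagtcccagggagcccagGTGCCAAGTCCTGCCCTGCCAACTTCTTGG
RNASEK-C17orf49: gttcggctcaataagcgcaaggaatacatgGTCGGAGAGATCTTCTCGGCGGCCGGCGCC

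Total counts ranged from 27217899 to 33788024 per library, so that 3 counts, the most that a count of 0 allows, came to between 0.0888 and 0.110 CPM. SH2D1A, which encodes the adaptor of SLAM-family receptors, fell in all 4 comparisons, by 1.72, 1.60, 1.71 and 1.00 on the log2 scale in Jurkat (days 8 and 10) and then 6T-CEM (days 5 and 10). The summed level of 10 T-lineage markers was 2636 to 3654 CPM in Jurkat and 1322 to 1568 CPM in 6T-CEM, with CD3E at 365 to 546 CPM and CD2 as low as 0.990 CPM in the lowest library. Of the 5 B-cell markers the sum was 16.5 to 62.2 CPM with sh-SH2D1A and 24.9 to 74.9 CPM with sh-NC, nearly all of it CD79A, while MS4A1 and PAX5 stayed under 0.4 CPM. This sum in day 10 6T-CEM cells was 30.3 and 26.99 CPM with sh-SH2D1A, against 45.7 and 44.5 CPM with sh-NC, and its part in the results below was not tested. Of the 5 myeloid markers the sum was 1.02 to 2.87 CPM, with LYZ at or below 0.259 CPM. One group stood apart in its spread, 6T-CEM day 5 with sh-SH2D1A, where the 15981 genes of at least 1 CPM had a median absolute log2 ratio between replicates of 0.240, against 0.0846 to 0.142 in the other 7 groups.

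The tables count reads per gene without a stated rule for reads shared between genes, and the level of a gene in bulk RNA cannot tell fewer cells with a transcript from less transcript per cell. Levels below are CPM scaled by TMM. A change is called where edgeR's quasi-likelihood F-test gave a Benjamini-Hochberg adjusted p under 0.05 over all genes of the table. Log2 changes set sh-SH2D1A over sh-NC, and the value after ± is the standard error. Where 4 values are listed for the 4 comparisons, they begin with Jurkat (day 8, then day 10) and end with 6T-CEM (day 5, then day 10).

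With sh-SH2D1A, a few read-through genes changed by large factors, in either direction, while no called sum of a read-through gene and its 2 parents changed as much as 2-fold. Over the 59 loci the read-through gene held a median of 12.7% of its sum. Where that share is small, even a full loss of the gene moves the sum little. A steady sum there does not show that the parents made up for the gene. In day 8 Jurkat cells, 3 read-through genes rose and 5 fell of 56 tested, which is 14.3% against 12.4% of all 19266 genes tested. At day 10 in Jurkat, 1 rose and 2 fell of 55, which is 5.46% against 3.78% of all genes. None of 55 was called in day 5 6T-CEM cells, against 2.11% of all genes. There 9 had an unadjusted p under 0.05, and DESeq2 called 1, which is 1.82% against 5.74% of all genes called by DESeq2. At day 10 in 6T-CEM, 4 rose and 5 fell of 55, which is 16.4% against 14.0% of all genes. These shares lay close to the shares over all genes. They moved when 1 library was left out, which leaves an arm without a replicate: the read-through share was then 16.1 to 27.6%, 8.77 to 42.1%, 14.3 to 32.8% and 17.5 to 23.2% in the 4 comparisons, against 3.11 to 14.7%, 2.76 to 4.89%, 1.42 to 13.8% and 9.68 to 10.7% of all genes. The highest count, 24 of 57, came without the second sh-SH2D1A library of day 10 Jurkat cells. The 20 calls fell on 16 genes, of which only BIVM-ERCC5, SENP3-EIF4A1 and ARHGAP19-SLIT1 were called more than once. Between 3 and 4 of the 59 did not pass the filter on low counts in each comparison. With all 4 libraries of a comparison, the filter needs enough counts in at least 2 libraries. A gene counted in only 1 library was then not tested, however high its count, and those shares leave such genes out. With 1 library left out, enough counts in 1 library were sufficient. More genes were then tested, and those shares can include genes that were high in a single library.

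Several of the calls were large. Changes that were called and at least 4-fold numbered 4, 1, 0 and 3 among the read-through genes tested in the 4 comparisons, while over all genes they made up 0.208, 0.199, 0.144 and 0.382%. Among the parents they numbered 2 in day 8 Jurkat cells, TEN1 (-2.79 ± 0.40) and CDRT4 (-2.25 ± 0.55), 1 at day 10, again CDRT4 (-2.90 ± 0.53), and 0 in both 6T-CEM comparisons. Among the sums of 3 there were 0 in all 4 comparisons. The median absolute log2 change of the tested read-through genes was 0.51, 0.28, 0.35 and 0.32, against 0.13, 0.12, 0.22 and 0.10 for the sums and 0.20, 0.18, 0.26 and 0.18 for all genes tested. A gene with enough counts in 1 group only must differ between groups to pass the filter on low counts. BIVM-ERCC5, CORO7-PAM16 and SYS1-DBNDD2 passed it in this way in day 8 Jurkat cells. The counts of large changes and these medians therefore describe the genes tested and carry no test.

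BIVM-ERCC5 (ENSG00000270181, chromosome 13, 102799110 to 102875994, plus strand) had the largest changes, and in opposite directions. It joins BIVM to ERCC5, the endonuclease XPG of nucleotide excision repair, and every one of its 5709 exonic bases is also exonic in a parent. In day 8 Jurkat cells it had 0 counts in both sh-SH2D1A libraries, against 78.3 and 81.8 CPM in the sh-NC libraries. The order was the other way round in day 10 6T-CEM cells, with 24.3 and 40.8 CPM in the sh-SH2D1A libraries and 0 counts in both sh-NC libraries. Neither comparison had overlapping groups. Against a floor of 3 counts per library the gene was at least 798-fold lower with sh-SH2D1A in day 8 Jurkat cells (edgeR adjusted p = 2.71e-06) and at least 324-fold higher in day 10 6T-CEM cells (edgeR adjusted p = 4.13e-05). In each of these comparisons it passed the filter on low counts only through the arm that held its counts. These p-values are therefore no separate support for the changes.

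In the other groups BIVM-ERCC5 was nearly always at 0. All 4 Jurkat day 10 libraries had 0 counts, as had both sh-SH2D1A libraries of day 5 6T-CEM cells. The sh-NC libraries of day 5 6T-CEM cells had 0 and 94.9 CPM, that is 0 and 2567 counts. A pair of replicates of 1 group therefore differed by as much as the 2 arms did elsewhere, and 11 of the 16 libraries had no count at all.

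The parent ERCC5 moved the opposite way in the same libraries. It had 106 and 99.7 CPM with sh-SH2D1A in day 8 Jurkat cells, against 54.7 and 45.8 CPM with sh-NC, and rose (1.03 ± 0.09, edgeR adjusted p = 0.000972). The same parent in day 10 6T-CEM cells had 54.6 and 38.8 CPM with sh-SH2D1A, against 72.8 and 77.5 CPM with sh-NC, and fell (-0.68 ± 0.13, edgeR adjusted p = 0.0105). In the discordant 6T-CEM day 5 sh-NC pair, the library without BIVM-ERCC5 counts had 97.6 CPM of ERCC5 and the library with them 32.1 CPM. ERCC5 was thus low in each of the 5 libraries in which BIVM-ERCC5 was counted, relative to the other libraries of the same line and day. BIVM did not pass the test at day 8 in Jurkat (-0.18) and fell in day 10 6T-CEM cells (-0.45 ± 0.07, edgeR adjusted p = 0.00446).

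The sum of BIVM-ERCC5, BIVM and ERCC5 differed far less. It was 172 and 165 CPM with sh-SH2D1A in day 8 Jurkat cells, against 208 and 199.9 CPM with sh-NC, and fell (-0.28 ± 0.05, edgeR adjusted p = 0.0121). This call was lost without either sh-SH2D1A library (-0.32, adjusted p = 0.0638 without the first and -0.25, adjusted p = 0.146 without the second). The sum in day 10 6T-CEM cells was 115 and 120 CPM with sh-SH2D1A, against 127 and 129 CPM with sh-NC, a log2 change of -0.12 ± 0.04 that was not called. In the discordant 6T-CEM day 5 sh-NC pair it was 176 and 195 CPM. The change of BIVM-ERCC5 in day 8 Jurkat cells stayed called in all 10 alternative fits. Its change in day 10 6T-CEM cells stayed called without each library in turn, but not when all 16 libraries shared 1 estimate of the spread (adjusted p = 0.108) or with a robust estimate of it (adjusted p = 0.0661).

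**Figure D1:**
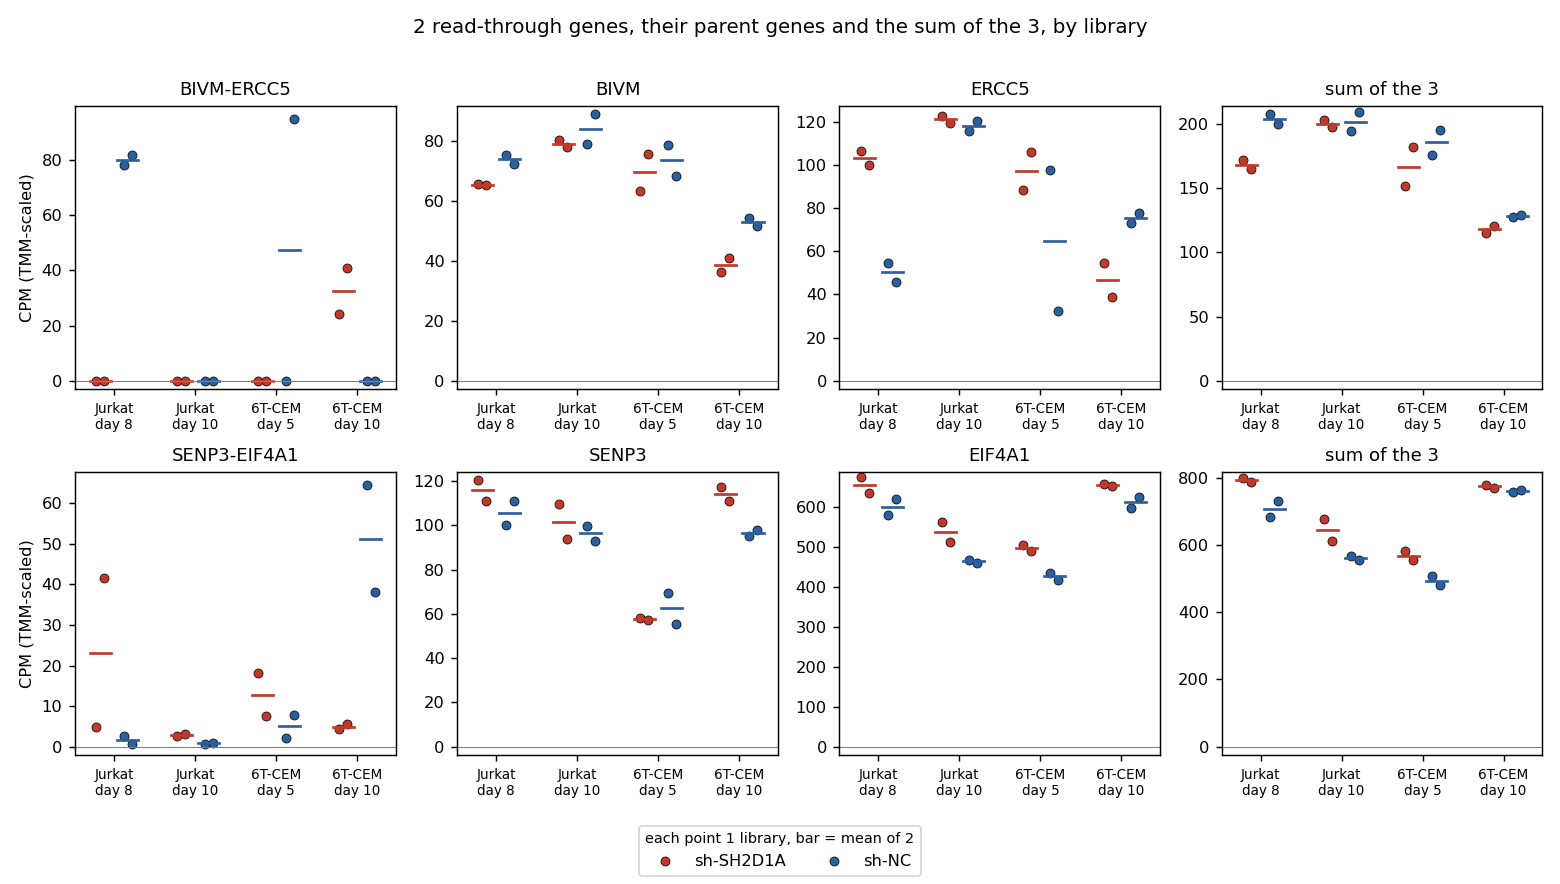
Levels (CPM, linear axes) of BIVM-ERCC5 and SENP3-EIF4A1, their 2 parents and the sum of the 3 in each library, by line and day, with sh-SH2D1A in red to the left of sh-NC in blue. Points are libraries and bars the mean of 2 libraries. BIVM-ERCC5 is at 0 in 11 of 16 libraries and between 24.3 and 94.9 CPM in the other 5, while its sum stays between 115 and 209 CPM.

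SENP3-EIF4A1 (ENSG00000277957, chromosome 17, 7563287 to 7578715, plus strand) was called in 3 comparisons, up in both Jurkat ones and down in day 10 6T-CEM cells. Its symbol joins SENP3, a SUMO protease needed for ribosome biogenesis, to EIF4A1, the RNA helicase of translation initiation, and 88.0% of its exonic bases are shared with them. No annotated splice junction between exons of these parents was found for it. The gene does have 1 annotated intron that neither parent has, and 422 exonic bases outside both. Its level in day 8 Jurkat cells was 4.80 and 41.5 CPM with sh-SH2D1A, against 2.70 and 0.753 CPM with sh-NC. At day 10 it had 2.73 and 3.19 CPM with sh-SH2D1A, against 0.594 and 1.03 CPM with sh-NC. Both Jurkat comparisons had every sh-SH2D1A library above both sh-NC libraries, although 1 sh-SH2D1A library at day 8 was far above the other.

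In day 5 6T-CEM cells SENP3-EIF4A1 had 18.2 and 7.46 CPM with sh-SH2D1A, against 2.08 and 7.95 CPM with sh-NC, and these ranges overlapped. At day 10 it had 4.30 and 5.50 CPM with sh-SH2D1A, against 64.4 and 38.1 CPM with sh-NC, without overlap. The log2 changes were 3.74 ± 0.96 (edgeR adjusted p = 0.0434) and 1.86 ± 0.35 (edgeR adjusted p = 0.0167) in Jurkat cells of days 8 and 10 and -3.38 ± 0.25 (edgeR adjusted p = 0.000111) in day 10 6T-CEM cells. The day 5 change in 6T-CEM was 1.37 ± 0.57 and was not called. The Jurkat day 8 call was lost without the second sh-SH2D1A library (1.47, adjusted p = 0.208) and without the second sh-NC library (3.08, adjusted p = 0.0542), and the Jurkat day 10 call without the first sh-NC library (1.52, adjusted p = 0.0514). The 6T-CEM day 10 call was kept without each library in turn.

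Its parents and their sum moved little. The sum of the 3 was 799.7 and 788 CPM with sh-SH2D1A in day 8 Jurkat cells, against 683 and 731 CPM with sh-NC, and 779 and 770.4 CPM with sh-SH2D1A in day 10 6T-CEM cells, against 759 and 762 CPM with sh-NC. None of the 4 changes of the sum was called, at 0.16 ± 0.05 in day 8 Jurkat cells, 0.20 ± 0.08 at day 10, 0.21 ± 0.11 in day 5 6T-CEM cells and 0.03 ± 0.03 at day 10. The read-through gene held between 0.103 and 8.49% of the counts of the 3. SENP3 rose in day 10 6T-CEM cells (0.24 ± 0.04, edgeR adjusted p = 0.00808), and neither parent was called in Jurkat.

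Whether changes differed between lines or days was tested in 1 fit of all 16 libraries. The change of SENP3-EIF4A1 was higher in Jurkat than in 6T-CEM by 3.81 ± 0.87 on the log2 scale (edgeR adjusted p = 0.0395), and no other read-through gene was called, which is 1 of 59 against 1.90% of all genes. That call was lost when any 1 of 10 of the 16 libraries was left out, namely each of the 4 of day 10 6T-CEM cells, the second sh-NC library of day 5, the second sh-SH2D1A and second sh-NC libraries of day 8 Jurkat cells, and the first sh-SH2D1A and both sh-NC libraries of day 10 Jurkat cells. No read-through gene was called by edgeR for the difference between Jurkat days, against 0.00454% of all genes, or between 6T-CEM days, against 0.681%. In these tests 8 and 11 of the 59 had an unadjusted p under 0.05, and DESeq2 called 1 and 6. The matching shares of all genes are not given for these counts, and the edgeR shares are no background for them. For BIVM-ERCC5 every such difference involved groups at 0 counts, so its size has no meaning. The 6T-CEM day difference was fitted at 26.4 ± 5.16 (edgeR adjusted p = 0.0644) and was not called. The line and Jurkat day differences had standard errors of 7.1e+04 and 2.5e+05.

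Of the other genes that fell in day 8 Jurkat cells, CORO7-PAM16 (ENSG00000103426, chromosome 16, 4340251 to 4420494, minus strand) joins the Golgi coronin CORO7 to PAM16, a subunit of the mitochondrial import motor. It had 0.128 and 0.105 CPM with sh-SH2D1A, against 3.88 and 10.9 CPM with sh-NC, and fell by 5.94 ± 0.64 on the log2 scale (edgeR adjusted p = 0.00196). It passed the filter on low counts there only through its sh-NC libraries. The groups did not overlap at day 8, but at day 10 it had 0.162 and 7.38 CPM with sh-SH2D1A, against 1.57 and 0.639 CPM with sh-NC, so 1 pair of replicates spanned both arms. In 6T-CEM the levels were 1.18 and 0.0754 CPM with sh-SH2D1A at day 5, against 2.18 and 0.148 CPM with sh-NC. At day 10 they were 0.279 and 0.120 CPM with sh-SH2D1A, against 0.0337 and 10.4 CPM with sh-NC, where the sh-NC libraries had 1 and 332 counts and the gene was not tested. Its sum in day 8 Jurkat cells was 45.8 and 61.4 CPM with sh-SH2D1A, against 51.8 and 59.8 CPM with sh-NC (-0.07 ± 0.13, not called).

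SYS1-DBNDD2 (ENSG00000254806, chromosome 20, 45363200 to 45410610, plus strand) starts in SYS1, a Golgi trafficking protein. In day 8 Jurkat cells it had 0 counts in both sh-SH2D1A libraries, against 2.13 and 5.002 CPM with sh-NC, and was at least 35.6-fold lower (edgeR adjusted p = 0.00275), without overlap. It passed the filter on low counts there only through its sh-NC libraries. At day 10 it had 0.0649 and 3.36 CPM with sh-SH2D1A, against 0.245 and 1.67 CPM with sh-NC. In 6T-CEM it had 1.61 and 0.0754 CPM with sh-SH2D1A at day 5, against 3.71 and 4.10 CPM with sh-NC, and at day 10 it had 0.0619 and 2.62 CPM with sh-SH2D1A, against 7.78 and 4.02 CPM with sh-NC. Both 6T-CEM comparisons had the sh-SH2D1A libraries below the sh-NC libraries and were not called, and in 3 of the 4 sh-SH2D1A groups 1 library held nearly all of the counts. Its sum in day 8 Jurkat cells was 77.7 and 75.6 CPM with sh-SH2D1A, against 78.4 and 79.9 CPM with sh-NC (-0.05 ± 0.06, not called).

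BMS1P4-AGAP5 (ENSG00000242288, chromosome 10, 73674295 to 73730466, minus strand) is a processed transcript that joins a BMS1 pseudogene to AGAP5, of an ArfGAP family with near-identical copies, so its counts are uncertain. Its level in day 8 Jurkat cells was 2.85 and 2.92 CPM with sh-SH2D1A, against 13.96 and 7.75 CPM with sh-NC, and fell (-1.92 ± 0.29, edgeR adjusted p = 0.00674). The groups did not overlap there and overlapped in the other 3 comparisons, with 6.65 and 2.95 CPM with sh-SH2D1A in day 10 Jurkat cells, against 4.40 and 8.20 CPM with sh-NC. In 6T-CEM it had 4.71 and 3.96 CPM with sh-SH2D1A at day 5, against 6.47 and 3.84 CPM with sh-NC, and 1.27 and 7.15 CPM with sh-SH2D1A at day 10, against 5.69 and 1.22 CPM with sh-NC. Here the sum also fell in day 8 Jurkat cells (-0.65 ± 0.13, edgeR adjusted p = 0.0191), a call lost without the second sh-SH2D1A library (-0.52, adjusted p = 0.112). Neither parent was called.

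**Figure D2:**
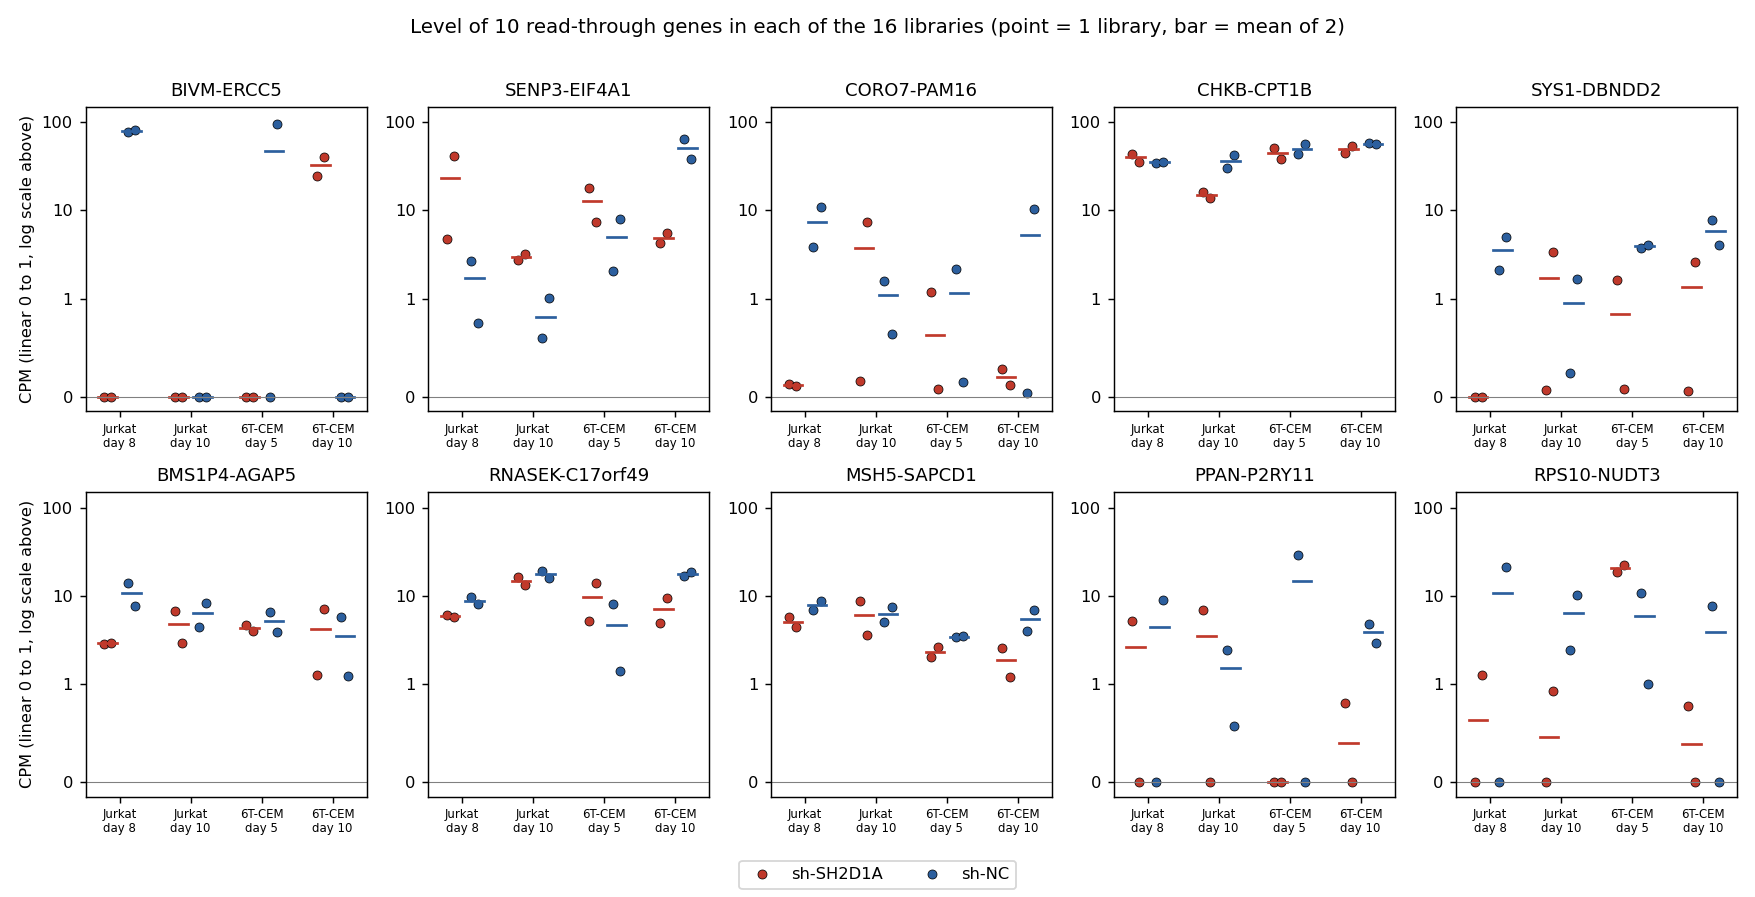
Level (CPM, linear between 0 and 1 and logarithmic above) of 10 read-through genes in each of the 16 libraries, by line and day, with sh-SH2D1A in red to the left of sh-NC in blue. Points are libraries, 4 of the 10 genes have at least 1 library without counts, and pairs of the same group often lie as far apart as the arms.

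In day 10 Jurkat cells a pair of read-through genes fell. CHKB-CPT1B (ENSG00000254413, chromosome 22, 50568869 to 50582965, minus strand) joins a choline kinase to a carnitine palmitoyltransferase known from muscle. It had 16.2 and 13.7 CPM with sh-SH2D1A, against 30.5 and 43.0 CPM with sh-NC, without overlap (-1.29 ± 0.17, edgeR adjusted p = 0.00239). The call was kept without each library in turn. Both parents were higher with sh-SH2D1A without being called, CHKB at 43.6 and 45.2 CPM, against 38.1 and 27.2 CPM with sh-NC (0.45 ± 0.14), and CPT1B at 25.3 and 28.2 CPM, against 23.6 and 17.3 CPM with sh-NC (0.39 ± 0.15). The sum was 85.2 and 87.1 CPM with sh-SH2D1A, against 92.3 and 87.5 CPM with sh-NC (-0.06 ± 0.08, not called).

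CHKB-CPT1B was not called elsewhere. It had 44.0 and 35.8 CPM with sh-SH2D1A in day 8 Jurkat cells, against 34.9 and 35.5 CPM with sh-NC. In 6T-CEM it had 51.1 and 38.4 CPM with sh-SH2D1A at day 5, against 43.3 and 56.3 CPM with sh-NC, and 44.8 and 54.4 CPM with sh-SH2D1A at day 10, against 57.7 and 56.7 CPM with sh-NC. The arms overlapped at day 5 and did not in the other 2 comparisons. In 2 of these comparisons it was a parent that changed, with CPT1B lower in day 8 Jurkat cells (-0.61 ± 0.10, edgeR adjusted p = 0.0103) and CHKB higher in day 10 6T-CEM cells (0.83 ± 0.10, edgeR adjusted p = 0.00147). The CPT1B call was lost without the second sh-SH2D1A library (-0.53, adjusted p = 0.0718).

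RPS10-NUDT3 (ENSG00000270800, chromosome 6, 34284887 to 34426071, minus strand) joins RPS10, a protein of the small ribosomal subunit, to the Nudix hydrolase NUDT3, and has only 16 bases of its own. At day 10 in Jurkat it had 0 and 0.927 CPM with sh-SH2D1A, against 2.45 and 10.2 CPM with sh-NC, without overlap (-3.77 ± 0.90, edgeR adjusted p = 0.0463). The call was lost without the second sh-NC library (-2.41, adjusted p = 0.177) and with DESeq2 (adjusted p = 0.531). The sh-SH2D1A libraries alone would not have passed the filter on low counts there, so the edgeR p-value is no separate support. At day 8 the gene had 0 and 1.27 CPM with sh-SH2D1A, against 0 and 21.3 CPM with sh-NC. In 6T-CEM it had 18.5 and 22.5 CPM with sh-SH2D1A at day 5, against 10.7 and 0.998 CPM with sh-NC, and 0.774 and 0 CPM with sh-SH2D1A at day 10, against 7.67 and 0 CPM with sh-NC. The arms overlapped in day 8 Jurkat cells and 6T-CEM at day 10, and at day 5 in 6T-CEM both sh-SH2D1A libraries were the higher ones. Its sum changed by -0.07 ± 0.07 in day 10 Jurkat cells and was not called.

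RNASEK-C17orf49 (ENSG00000161939, chromosome 17, 7012635 to 7017520, plus strand) fell in day 10 6T-CEM cells, where its downstream parent rose. It joins RNASEK, a small membrane protein named for its endoribonuclease activity, to C17orf49, a chromatin-associated protein. The read-through gene had 4.92 and 9.38 CPM with sh-SH2D1A, against 16.8 and 18.7 CPM with sh-NC (-1.31 ± 0.25, edgeR adjusted p = 0.0113). C17orf49 had 24.0 and 21.3 CPM with sh-SH2D1A, against 15.5 and 16.4 CPM with sh-NC (0.51 ± 0.10, edgeR adjusted p = 0.0143), a call lost without the first sh-SH2D1A library (0.42, adjusted p = 0.0896). The arms did not overlap for either gene, and the sum was 83.6 and 85.5 CPM with sh-SH2D1A, against 89.2 and 91.5 CPM with sh-NC (-0.09 ± 0.04, not called). Elsewhere RNASEK-C17orf49 had 6.09 and 5.76 CPM with sh-SH2D1A in day 8 Jurkat cells, against 9.57 and 8.08 CPM with sh-NC. At day 10 in Jurkat it had 16.2 and 13.2 CPM with sh-SH2D1A, against 19.0 and 15.9 CPM with sh-NC, and in day 5 6T-CEM cells it had 5.21 and 14.1 CPM with sh-SH2D1A, against 7.998 and 1.40 CPM with sh-NC. Only the day 8 arms were apart, and none of the 3 changes was called.

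PPAN-P2RY11 (ENSG00000243207, chromosome 19, 10106223 to 10114780, plus strand) joins the ribosome biogenesis factor PPAN to P2RY11, a receptor for extracellular ATP. With sh-SH2D1A it had 0.805 and 0 CPM in day 10 6T-CEM cells, against 4.78 and 2.92 CPM with sh-NC, without overlap (-3.25 ± 0.84, edgeR adjusted p = 0.0361), although DESeq2 gave an adjusted p of 0.415. At day 10 its sh-SH2D1A libraries alone would not have passed the filter on low counts, so the edgeR p-value is no separate support. At day 5 in 6T-CEM the gene was at 0 counts in both sh-SH2D1A libraries and had 29.3 and 0 CPM with sh-NC. The sh-NC library with 29.3 CPM had 28.2 CPM of PPAN and 7.18 CPM of P2RY11, and the one with 0 had 44.9 and 14.5 CPM of the same parents, so the sums were 64.6 and 59.4 CPM. In Jurkat it had 5.19 and 0 CPM with sh-SH2D1A at day 8, against 0 and 8.92 CPM with sh-NC, and 6.91 and 0 CPM with sh-SH2D1A at day 10, against 2.45 and 0.568 CPM with sh-NC. In both Jurkat comparisons 1 library of a pair was at 0 beside 1 that was not, and the arms overlapped.

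MSH5-SAPCD1 (ENSG00000255152, chromosome 6, 31740020 to 31764851, plus strand) starts in MSH5, a meiotic relative of mismatch repair proteins. Its level in day 10 6T-CEM cells was 2.54 and 1.20 CPM with sh-SH2D1A, against 3.97 and 6.94 CPM with sh-NC, without overlap (-1.54 ± 0.39, edgeR adjusted p = 0.0328). The call was lost without the second sh-NC library (-1.09, adjusted p = 0.101) or the second sh-SH2D1A library (-1.10, adjusted p = 0.0940). In Jurkat it had 5.67 and 4.39 CPM with sh-SH2D1A at day 8, against 6.87 and 8.77 CPM with sh-NC, and 8.66 and 3.57 CPM with sh-SH2D1A at day 10, against 4.997 and 7.45 CPM with sh-NC. In day 5 6T-CEM cells it had 2.02 and 2.64 CPM with sh-SH2D1A, against 3.40 and 3.47 CPM with sh-NC. The sh-SH2D1A libraries were thus the lower ones in 3 of the 4 comparisons, and the sum was not called in day 10 6T-CEM cells (-0.35 ± 0.15).

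The remaining 6 genes with a call changed less. ARHGAP19-SLIT1, whose upstream parent is a GTPase-activating protein and whose downstream parent is an axon guidance ligand, rose in day 8 Jurkat cells to 13.3 and 13.8 CPM with sh-SH2D1A, against 6.43 and 6.84 CPM with sh-NC (1.02 ± 0.14, edgeR adjusted p = 0.00487). It rose again in day 10 6T-CEM cells (1.05 ± 0.29, edgeR adjusted p = 0.0449), where the call was lost without the first sh-SH2D1A library (0.49, adjusted p = 0.220) and without either sh-NC library (1.05 to 1.06, adjusted p = 0.0523 and 0.0590). Only 41.6% of its exonic bases are shared, and its parents' changes in these comparisons were not called. PDXDC2P-NPIPB14P, of 2 pseudogenes from families with near-identical copies, fell in day 8 Jurkat cells (-0.76 ± 0.11, edgeR adjusted p = 0.00660) and held 93.7% of the counts of its sum, which fell by 0.78 ± 0.11. PPT2-EGFL8, which starts in a lysosomal thioesterase gene, rose in day 8 Jurkat cells (0.87 ± 0.20, edgeR adjusted p = 0.0309) and lost the call without the second sh-NC library (0.84, adjusted p = 0.0610), the first sh-SH2D1A library (0.97, adjusted p = 0.0768) or the second (0.77, adjusted p = 0.169).

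A further 3 changes in day 10 6T-CEM cells lay within 0.4 on the log2 scale. RTEL1-TNFRSF6B, which joins a telomere helicase to a decoy receptor, rose (0.33 ± 0.07, edgeR adjusted p = 0.0154), HNRNPUL2-BSCL2, which ends in the seipin gene, fell (-0.22 ± 0.06, edgeR adjusted p = 0.0434), and BOLA2-SMG1P6, which starts in an iron-sulphur protein gene of a segmental duplication, rose (0.21 ± 0.06, edgeR adjusted p = 0.0484). Each of the 3 calls was lost without at least 1 library. RTEL1-TNFRSF6B had 0.25 (adjusted p = 0.0616) without the second sh-NC and 0.26 (adjusted p = 0.0530) without the second sh-SH2D1A library. HNRNPUL2-BSCL2 had -0.17 (adjusted p = 0.202) without the second sh-NC and -0.16 (adjusted p = 0.137) without the first sh-SH2D1A library, and BOLA2-SMG1P6 lost its call without any 1 of the 4.

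The 5 read-through genes with the highest mean level among those never called were ANKHD1-EIF4EBP3, RPL17-C18orf32, SLX1B-SULT1A4, SLX1A-SULT1A3 and RBM14-RBM4. ANKHD1-EIF4EBP3, with the highest mean CPM of all 59, had 91.2 CPM in its lowest library, 128.9 CPM at the median and 160.4 CPM in its highest, and its changes were between -0.21 and 0.13. RPL17-C18orf32, which starts in a ribosomal protein gene, ranged from 9.88 to 84.0 CPM, and its changes of 0.50, 0.94, -1.31 and 1.05 in the 4 comparisons had adjusted p between 0.0501 and 0.119, while its sum changed by between -0.20 and 0.03. SLX1B-SULT1A4 and SLX1A-SULT1A3, endonuclease and sulphotransferase pairs that are near-identical copies of each other, cannot be counted apart with certainty. RBM14-RBM4, of 2 RNA-binding proteins, had a median of 35.2 CPM and at most 40.6 CPM in any library.

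Because the arms held 2 libraries each, the spread within a group was set beside the change. The median absolute log2 ratio of the 2 libraries of a group, at CPM plus 0.5, was between 0.240 and 0.521 over the read-through genes in the 8 groups. It was between 0.114 and 0.251 over their parents, 0.0413 and 0.206 over the sums, and 0.0846 and 0.240 over all genes of at least 1 CPM. In each group 11 to 17 of the 59 read-through genes differed at least 2-fold between replicates, that is 18.6 to 28.8%, while none of the sums did in any of the 8 groups and 0.895 to 2.39% of all genes did. The sum had the smaller median ratio in 55 of 59 loci. A pair with both libraries at 0 counts has a ratio of 0. BIVM-ERCC5 and PEDS1-UBE2V1, at 0 in 11 and 14 libraries, therefore had a median ratio of 0 and are among the exceptions. For them a median of 0 does not mean a steady level. Most sums consist mainly of the parents' counts, so a smaller ratio can follow from their higher level and from averaging alone. The ratios of the sums are therefore a description and no test of stability.

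The change between arm means exceeded both replicate ratios for 15, 12, 13 and 21 of the 59 read-through genes in the 4 comparisons. These counts are 25.4, 20.3, 22.0 and 35.6%, against 48.9, 38.3, 36.9 and 49.1% of all genes of at least 1 CPM. For the sums the counts were 35, 22, 23 and 34 of 59.

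**Figure D3:**
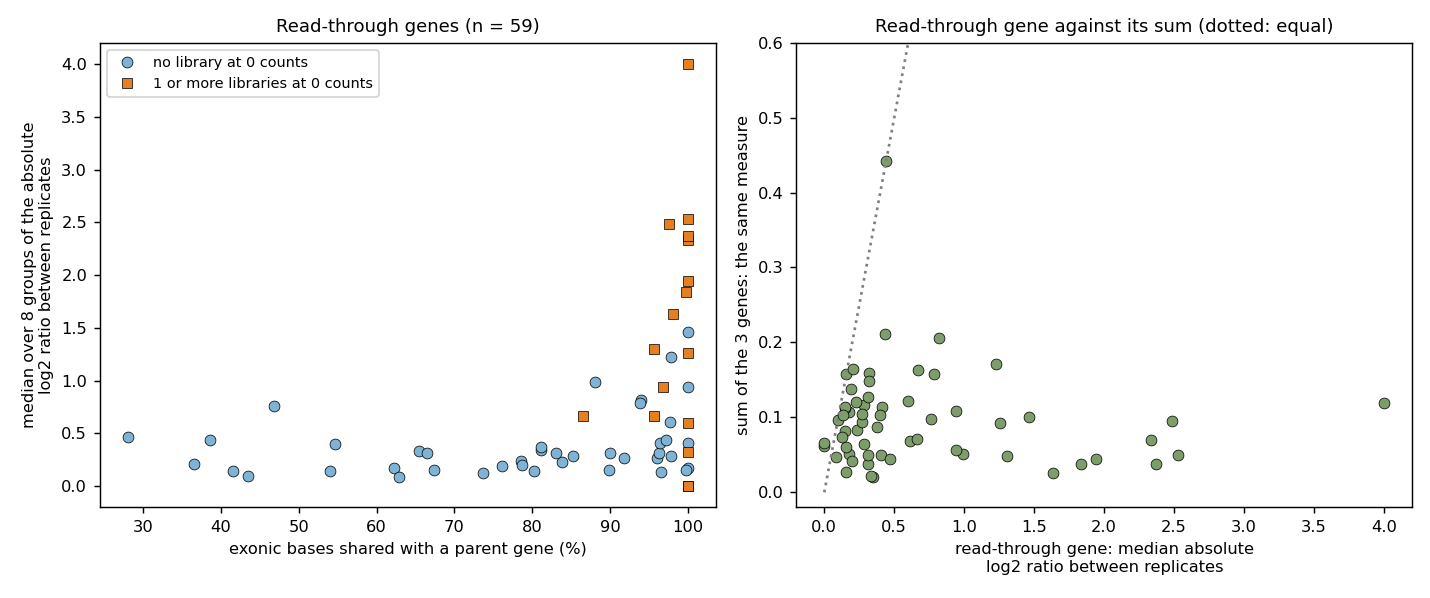
Spread between replicates of the 59 read-through genes, as the median over 8 groups of the absolute log2 ratio of the 2 libraries at CPM plus 0.5. On the left it is plotted against the percentage of exonic bases shared with a parent, with orange squares for the 17 genes that have at least 1 library at 0 counts, and on the right against the same ratio of the sum of the 3, where the dotted line marks equal values and 55 of the 59 genes lie on the side of the larger read-through ratio. BIVM-ERCC5 and PEDS1-UBE2V1 lie at 0 because most of their pairs had 0 counts in both libraries.

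Many of the large ratios were switches between 0 and a clear count. Of the 59 read-through genes, 17 had at least 1 library at 0 counts (28.8%), against 0 of the 107 parents of at least 1 CPM and 200 of 15981 genes of that level (1.25%). In 30 of the 472 pairs of replicates (6.36%), 1 library had 0 counts and the other at least 100, against 0 of 936 pairs for the parents and 57 of 127848 pairs for all genes of at least 1 CPM (0.0446%). These 30 pairs came from 14 read-through genes.

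INO80B-WBP1 showed this in every group, and it and the 3 genes named after it were chosen after their values were seen. INO80B, a subunit of a chromatin remodeller, and WBP1, a WW-domain binding protein, are joined in it, and 1 library of each of the 8 pairs was at 0 counts while the other had between 1.98 and 23.7 CPM. ISY1-RAB43, which starts in a splicing factor gene and ends in a Rab GTPase gene, was at 0 in 10 libraries and had 11.8 to 22.5 CPM in the other 6. BLOC1S5-TXNDC5, which ends in a disulphide isomerase gene, had 46.7 and 0 CPM in the sh-NC libraries of day 10 6T-CEM cells, where TXNDC5 had 82.4 and 131 CPM and the sum of the 3 was 153 and 159 CPM. PEDS1-UBE2V1 was at 0 in 14 libraries, and a sh-NC library of day 10 6T-CEM cells had 19.0 CPM.

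Libraries at 0 were set beside the share of sequence that a read-through gene has in common with its parents. Of the 14 read-through genes with every exonic base in a parent, 10 had a library at 0, and their median replicate log2 ratio was 1.10. That median includes BIVM-ERCC5 and PEDS1-UBE2V1, whose ratio is 0 because most of their pairs had no counts. Of the 17 with less than 80% shared, 0 had a library at 0, and their median ratio was 0.199. The remaining genes, with at least 80% but not all bases shared, included the other genes with a library at 0, beside genes without one. The median of mean CPM, which is not scaled by length, was 5.61 for the fully shared and 9.01 for those with less than 80% shared. Across the 59 genes, which are not independent replicates and share their libraries, Spearman's rank correlation between the shared percentage and the replicate ratio was 0.447, between mean CPM and the ratio -0.406, and between shared percentage and mean CPM -0.042. How reads on shared bases were assigned was not tested.

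Where a read-through gene differed between replicates, its parents mostly differed the other way. Among 243 pairs of replicates, from 53 genes, in which the read-through gene differed by at least 2 CPM, the 2 parents together moved in the opposite direction in 186 (76.5%), and the sum of the 3 differed by less than the read-through gene in 152. Between the arms, 122 of 236 differences were of at least 2 CPM, from 49 genes, and the parents moved oppositely in 69 of them (56.6%), with a smaller difference of the sum in 49. Gene and sum had a median absolute difference of 5.28 and 4.48 CPM between replicates, and of 5.03 and 8.96 CPM between arms. A difference of the sum contains that of the read-through gene, so these counts describe how gene and parents moved. Whether counts were exchanged between them was not tested.

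**Figure D4:**
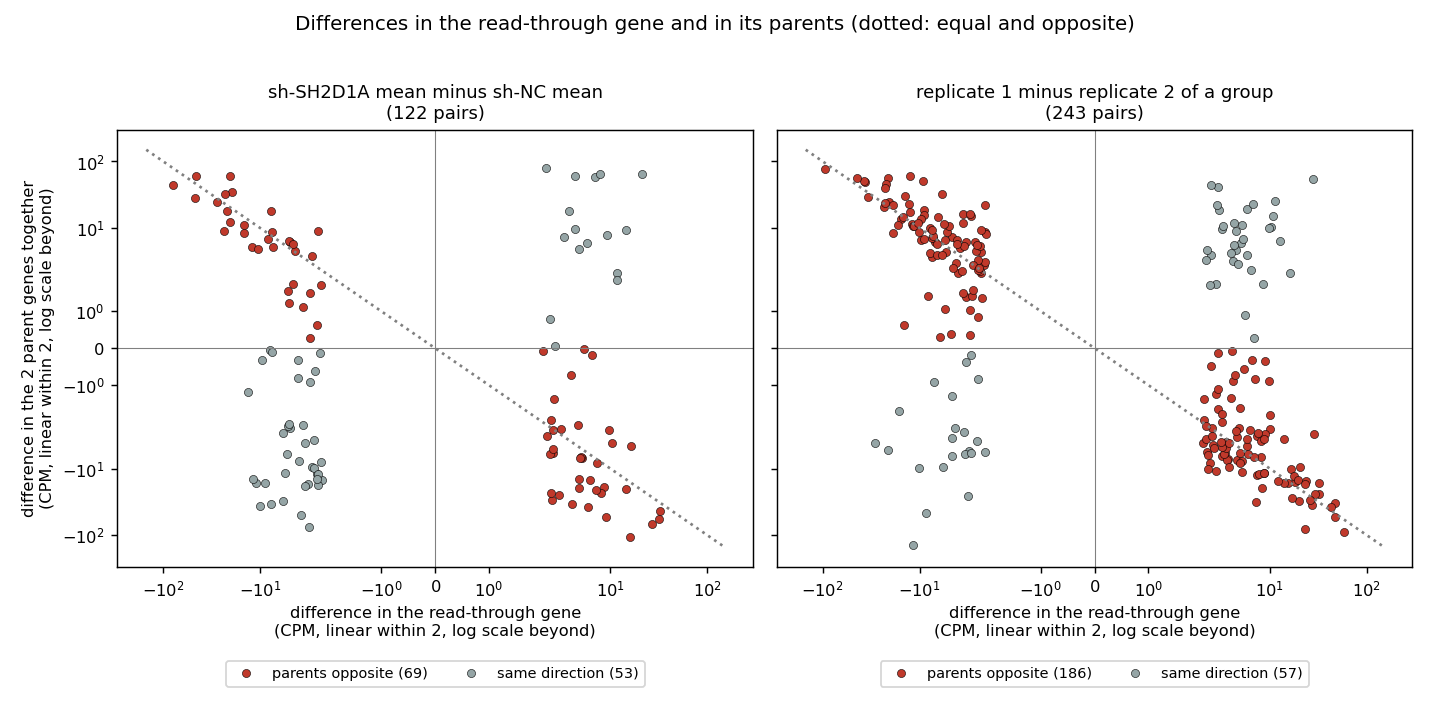
Difference in the read-through gene (horizontal) against the difference in its 2 parents together (vertical), in CPM on axes that are linear within 2 and logarithmic beyond, for the 122 differences of sh-SH2D1A minus sh-NC (left) and the 243 differences between replicates of a group (right) of at least 2 CPM. Each point is 1 gene in 1 comparison or pair, the dotted line marks equal and opposite differences, and the opposite-sign quadrants hold 69 points on the left and 186 on the right.

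The sums were called in 0 to 13 of 59 loci, with small changes. In day 8 Jurkat cells, 2 rose and 11 fell of 59, which is 22.0% against 12.9% of all features in a fit with sums in place of their single genes. At day 10 the count was 1 of 59, ISY1-RAB43 (-0.47 ± 0.08, edgeR adjusted p = 0.00755), against 4.09%. At day 5 in 6T-CEM it was 0 of 59 against 2.30% (edgeR, with 8 at an unadjusted p under 0.05 and 1 call by DESeq2), and at day 10, 3 rose and 7 fell, which is 17.0% against 14.4%. The 95% interval of the change lay within 1.5-fold in both directions for 53, 56, 32 and 56 of the 59 sums, and for 13, 14, 8 and 14 of the read-through genes tested. A change of at least 2-fold, called or not, was seen in 14, 11, 12 and 15 read-through genes (4.58, 4.59, 7.91 and 4.75% of all genes), and in 1, 0, 1 and 0 sums, both times SUGT1P4-STRA6LP, whose parents had no counts and whose sum is the read-through gene itself.

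Of the called sums, 3 of the 13 in day 8 Jurkat cells (PDXDC2P-NPIPB14P, BMS1P4-AGAP5 and BIVM-ERCC5) and 1 of the 10 in day 10 6T-CEM cells (RTEL1-TNFRSF6B) belonged to a read-through gene called in the same comparison. At day 8 in Jurkat the larger ones included PDXDC2P-NPIPB14P (-0.78), TVP23C-CDRT4 (-0.65), BMS1P4-AGAP5 (-0.65) and P2RX5-TAX1BP3 (-0.43), with CHURC1-FNTB (0.26) and PPAN-P2RY11 (0.30) the ones that rose. At day 10 in 6T-CEM the largest were P2RX5-TAX1BP3 (-0.41), CKLF-CMTM1 (-0.33), POC1B-GALNT4 (-0.30) and CORO7-PAM16 (-0.25), and SLX1B-SULT1A4 (0.23), SLX1A-SULT1A3 (0.21) and RTEL1-TNFRSF6B (0.18) rose. Some of these calls were lost without 1 library. Without the first sh-NC, second sh-NC or second sh-SH2D1A library the sum of CORO7-PAM16 had -0.23, -0.28 and -0.21, without the second sh-NC library that of SLX1A-SULT1A3 had 0.19, and without the first sh-NC or first sh-SH2D1A library that of RTEL1-TNFRSF6B had 0.135 and 0.16. At day 8 in Jurkat the sum of PPAN-P2RY11 had 0.27 without the second sh-SH2D1A library and was not called. The sum of ISY1-RAB43 was called in 3 comparisons and always fell, by 0.40 and 0.47 in Jurkat cells of days 8 and 10 and by 0.17 in day 10 6T-CEM cells. There the parent RAB43, a Rab GTPase, fell as well, by 0.79 ± 0.08, 0.91 ± 0.11 and 0.42 ± 0.11, each called by edgeR.

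**Figure D5:**
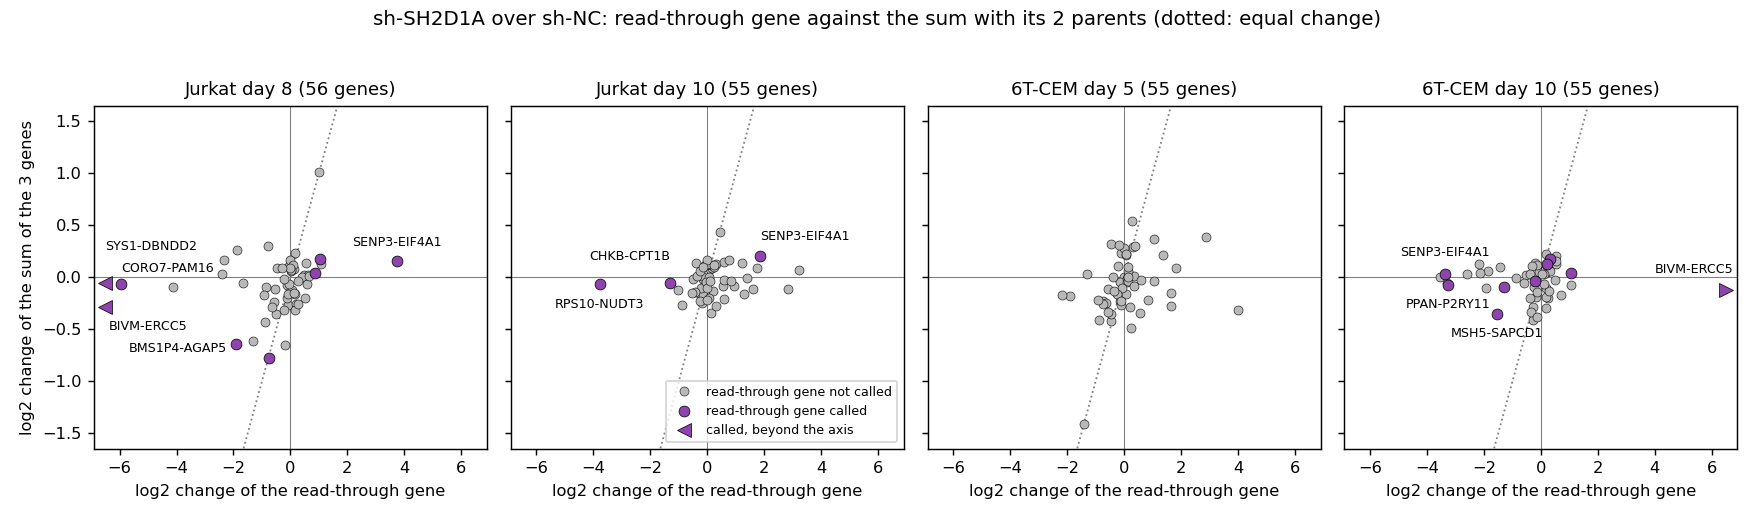
Log2 change (sh-SH2D1A over sh-NC) of each tested read-through gene (horizontal) against that of the sum with its 2 parents (vertical), 1 panel for each comparison with 56, 55, 55 and 55 genes. Purple points are read-through genes called by edgeR, triangles lie beyond the axis limits, and the sums stay within 1.5 on the log2 scale while single genes reach beyond 3.

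The parents are counted against the same shares of all genes. At day 8 in Jurkat, 7 rose and 14 fell of 109 tested (19.3%), at day 10 0 rose and 3 fell of 109, and in day 10 6T-CEM cells, 9 rose and 9 fell of 108 (16.7%). The 3 at day 10 in Jurkat were P2RX5, RAB43 and CDRT4. At day 5 in 6T-CEM, 0 of 109 were called by edgeR, 21 had an unadjusted p under 0.05 and DESeq2 called 5, against 5.74% of all genes called by DESeq2.

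Calls among factors that end transcription or remove RNAs with early stop codons are to be read against the 12.4, 3.78, 2.11 and 14.0% of all genes called by edgeR in the 4 comparisons. Of 30 cleavage, polyadenylation and termination factors, 2 rose and 1 fell in day 8 Jurkat cells, none was called at day 10 (5 at an unadjusted p under 0.05), 1 rose in day 5 6T-CEM cells and 2 rose and 1 fell at day 10. Their median log2 change was 0.06, 0.04, 0.06 and 0.03, beside medians within 0.01 of 0 over all genes tested. SSU72, a phosphatase of the polymerase II tail, rose in day 8 Jurkat cells (0.34 ± 0.07) and in 6T-CEM cells of days 5 (0.79 ± 0.13) and 10 (0.35 ± 0.04). PAPOLG, a poly(A) polymerase, fell in day 8 Jurkat cells (-0.41 ± 0.07) and 6T-CEM at day 10 (-0.50 ± 0.09), WDR33, a subunit that reads the polyadenylation signal, rose in day 8 Jurkat cells (0.21 ± 0.05), and the elongation factor SUPT5H rose in day 10 6T-CEM cells (0.22 ± 0.03).

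Of 15 nonsense-mediated decay factors, 1 rose in day 8 Jurkat cells, EIF4A3 of the exon junction complex (0.21 ± 0.06), with 9 at an unadjusted p under 0.05, and none was called by edgeR in day 10 Jurkat cells or in day 5 6T-CEM cells (3 and 2 at an unadjusted p under 0.05). Their median log2 change was 0.15, -0.06, 0.02 and 0.02. SMG8, a regulator of the kinase SMG1, fell in day 10 6T-CEM cells (-0.35 ± 0.07) and CASC3, also of the exon junction complex, rose there (0.12 ± 0.03). The part of these factors in the levels of the read-through genes was not tested.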

How the data were processed

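The authors deposited whole-number counts, 1 table for each line and day, with Ensembl gene identifiers. StringTie, HISAT2 2.2.0 and the hg38 build are named in the submitters' processing notes, while the annotation release, strand setting and counting step were not given in the sources used here. All 16 libraries were used, and a count interval or floor covers counting error only.

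The members and lists were chosen with earlier results of these data known. Tables were fitted separately by edgeR 4.0.16 under R 4.3.3 (genes kept by filterByExpr at min.count 10, TMM, glmQLFit, two-sided quasi-likelihood F-test, Benjamini-Hochberg over all genes). Counts of a read-through gene and its parents were summed and put in place of the single genes, with the library sizes and TMM factors of the whole table. Fits were tested on simulated data. Differences between lines and days came from 1 fit of all libraries. Positions, transcripts and sequences come from GENCODE 29. Alternatives were DESeq2 1.42.0 and its size factors, no filter, a replicate block, all libraries in 1 fit, 1 sum per family of overlapping loci, each library left out and, chosen after seeing the data, a robust spread estimate.

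Named genes are every read-through gene called in a comparison, the 5 most abundant never called, and up to 4 of each list by lowest adjusted p. Library values are given for the 10 with the largest called changes or a group at 0.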

Additional observations from a re-analysis of the deposited data

Results flagged for a closer look

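The change of SENP3-EIF4A1 differed between the lines by a test of the difference itself, with a Jurkat minus 6T-CEM value of 3.81 on the log2 scale. The gene was called in opposite directions, at 3.74 (day 8) and 1.86 (day 10) in Jurkat and at -3.38 (day 10) in 6T-CEM. The day 5 change in 6T-CEM, 1.37 ± 0.57, had the direction of Jurkat and was not called, so the opposite direction rests on day 10 of 6T-CEM. The difference between the 6T-CEM days was -4.75 ± 1.14 (edgeR adjusted p = 0.0749), and the call of the line difference was lost without any 1 of 10 libraries.

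BIVM-ERCC5 was called in opposite directions as well, at least 798-fold lower with sh-SH2D1A in day 8 Jurkat cells and at least 324-fold higher in day 10 6T-CEM cells. In each comparison it passed the filter on low counts only through the arm that held its counts. The difference between these changes was not tested by itself. The fitted difference between the lines had a standard error of 7.1e+04, because of groups at 0 counts, and carries no information. Within the sh-NC pair of day 5 6T-CEM cells the same gene had 0 and 2567 counts.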

How the results depend on the processing

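Values listed for 4 comparisons begin with Jurkat (day 8, then day 10) and end with 6T-CEM (day 5, then day 10). With all 16 libraries in 1 fit, read-through calls were 4, 1, 3 and 1 in the 4 comparisons. These are 6.8, 1.7, 5.1 and 1.7% of those tested, against 6.0, 3.6, 14.1 and 4.2% of all genes. Parent calls were 8 in day 8 Jurkat cells and 13 and 4 in 6T-CEM at days 5 and 10. Sum calls were 8, 13 and 1 in the same 3 comparisons. Without a filter, read-through calls were 6, 0, 0 and 2 in the 4 comparisons. These are 10.3, 0, 0 and 3.39% of those tested, against 2.55, 0, 0.917 and 2.97% of all genes. Parent calls were 8, 0 and 5 and sum calls 6, 0 and 2 in both Jurkat comparisons and in day 10 6T-CEM cells. DESeq2 called 1 read-through gene in day 5 6T-CEM cells (1.82% of those tested, against 5.74% of all genes), with 5 parents and 1 sum. In day 10 Jurkat cells it called 5 parents and 2 sums. Its size factors in edgeR gave 1 read-through call in day 5 6T-CEM cells (1.82%, against 2.17% of all genes). A robust spread gave 5 read-through calls in day 10 6T-CEM cells (9.09% of those tested, against 16.1% of all genes) and 2 sum calls in day 10 Jurkat cells. For the differences, DESeq2 called 4 read-through genes between lines, 1 between Jurkat days and 6 between 6T-CEM days, and no filter gave 1 and 3 for the days. The shares of all genes called for the differences in these settings are not given, so these counts have no background beside them. The cause of these shifts was not tested. With 1 sum per family of overlapping loci, sum calls stayed at 13, 1, 0 and 10.

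Same-numbered libraries deviated together at correlations across genes of 0.0145 to 0.0734, so the numbers were not taken as pairing. The replicate block gave 7, 7 and 13 read-through calls in day 10 Jurkat and in day 5 and day 10 6T-CEM cells, 7 and 18 parent calls and 2 and 7 sum calls in day 10 Jurkat cells and day 5 6T-CEM cells, and 2 read-through calls between 6T-CEM days.

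Leaving out each library in turn, with the lone library of its arm assumed to vary like the other groups, gave read-through calls of 9 to 16, 5 to 24, 8 to 19 and 10 to 13 in the 4 comparisons. Parent calls were 5 to 28, 5 to 10, 2 to 27 and 13 to 20, and sum calls 5 to 20, 1 to 2, 0 to 13 and 5 to 7. Line differences ran from 0 to 2, Jurkat day differences from 0 to 0 and 6T-CEM day differences from 0 to 5. The highest read-through counts came without the second sh-SH2D1A library in day 10 Jurkat cells (24) and the first sh-SH2D1A library in day 5 6T-CEM cells (19). Of the 20 read-through calls, 3 were kept in all 10 alternatives, those of BIVM-ERCC5, ARHGAP19-SLIT1 and PDXDC2P-NPIPB14P in day 8 Jurkat cells, as were 1 of the 15 parent calls and 1 of the 9 sum calls that belong to the genes named by rule. None of these 44 calls reversed, and the other parent and sum calls were followed only as counts.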
